A study of Mus musculus with 10 samples.

Results

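The delta chain of the T cell receptor was followed through 5 genes in effector memory (EM) γδ T cells. They were Trdc, which encodes the constant region, and the variable (V) genes Trdv1, Trdv2-2, Trdv4 and Trdv5. They were chosen by name among the 27179 genes of the count table, and all 5 passed the filter on low counts, after which 12655 genes were tested. The cells were sorted as CD3+ γδTCR+ CD62L- CD44+ from the spleens of female C57BL/6 mice, 6 to 8 weeks old when the experiment began, and RNA from each mouse gave 1 library. The 5 pre-exposed mice had received 50000 P. chabaudi-infected red blood cells by the intravenous route, while the 5 naïve mice had not been infected. Both groups were given chloroquine and pyrimethamine from day 14, so that naïve mice were also drug-treated, and spleens were taken 12 weeks after that treatment ended. The comparison asks how the delta chain RNA of pre-exposed but resting EM γδ T cells differs from that of naïve mice.

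A γδ T cell carries a receptor made of 1 gamma and 1 delta chain, held at the surface by the CD3 chains. Each delta chain is assembled by joining a V gene to D and J segments, and this exon is then spliced to the single constant gene Trdc, so that Trdc reports all delta chain RNA and the V genes divide it into subsets. In mice, the protein of Trdv4 (Vδ1) is known as the partner of the Vγ6 chain encoded by Trgv6, in a near-invariant receptor of IL-17-producing γδ T cells, whereas Trdv5 and Trdv2-2 encode the Vδ5 and Vδ4 chains. Other V genes of the locus, called TRAV/DV, can be joined either to delta or to alpha J segments. In sorted bulk RNA, fewer cells that use a V gene and less RNA of that gene per cell cannot be told apart.

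All delta genes lie on chromosome 14 of GRCm38 (mm10). In the RefSeq and GENCODE gene models, 3 of the V genes lie upstream of the D and J segments on the plus strand. Trdv5 lies on the minus strand, downstream of Trdc in RefSeq and overlapping the end of Trdc in GENCODE. The last 60 coding bases of each V segment are shown in the sense direction, because this is the end that is joined to D and J and because it separates the genes. Capitals mark the codon of the conserved cysteine at which the junction begins.
Trdv1 (chr14:53882158-53882217, plus strand): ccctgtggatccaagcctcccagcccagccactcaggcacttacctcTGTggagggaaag
Trdv2-1 (chr14:53946601-53946660, plus strand): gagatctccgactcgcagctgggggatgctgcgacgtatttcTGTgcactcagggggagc
Trdv2-2 (chr14:53961543-53961602, plus strand): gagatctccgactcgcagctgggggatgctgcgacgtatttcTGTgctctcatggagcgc
Trdv4 (chr14:54075456-54075515, plus strand): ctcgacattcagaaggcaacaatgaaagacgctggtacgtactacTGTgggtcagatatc
Trdv5 (chr14:54148662-54148721, minus strand): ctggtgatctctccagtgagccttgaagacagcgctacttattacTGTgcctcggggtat

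The V segments of Trdv1, Trdv2-2, Trdv4 and Trdv5 were 47.7% to 53.2% identical to each other, and no pair shared a run of more than 9 bases. Reads of these genes are therefore separable by sequence. Trdv2-2 is the exception within the locus, since it was 92.3% identical to Trdv2-1 and shared a run of 221 bases with it, so counts of these paralogs are uncertain. Trdv5 carries another limit. In GENCODE, the last exon of Trdc runs on for several kilobases and overlaps 207 exon bases of Trdv5 on the opposite strand. In RefSeq, Trdc ends 2553 bases short of Trdv5, and the counting used an NCBI annotation, so reads of that overlap could be counted to Trdv5 but not to Trdc if strand was not used. No source used here gives the strand setting of the counting, so such Trdc reads and Trdv5 reads cannot be told apart.

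The depth of a library, as its total count, lay between 6587199 and 19993444 for the naïve mice and between 8747888 and 22542832 for the pre-exposed mice. Some libraries stood apart. The TMM scaling factor, which corrects for composition, was 0.68 in pre-exposed mouse 5 and 0.999 to 1.11 in the other libraries. Pre-exposed mice 2 to 4 lack the index pair that the labels give for the other 7 libraries, and a trend with gene length (Spearman's rho of each gene's deviation on its length) ran from 0.259 to 0.413 in naïve mice and from -0.536 to 0.273 in pre-exposed mice. Among markers of other cells, edgeR called higher in pre-exposed mice 5 of 5 tested monocyte and macrophage genes (summed level 36 to 159 CPM in naïve and 45.2 to 1494 CPM in pre-exposed mice), 4 of 7 dendritic cell genes (90.8 to 133 and 119 to 434 CPM) and 4 of 5 erythroid genes (79.6 to 459 and 325 to 2040 CPM). It also called 2 of 3 B cell genes (42.3 to 97.2 and 43.2 to 133 CPM), 1 of 6 αβ T cell genes (1642 to 1992 and 1576 to 3289 CPM), 1 of 5 NK cell genes (401 to 1122 and 515 to 1287 CPM) and 0 of 2 granulocyte genes (0 to 20.8 and 0 to 225 CPM). Over all 12655 genes tested, 5.12% were called higher, and 1 called gene in a list says little by itself. However, 0 of the 6 αβ T cell genes had a log2 fold change below 0, and 3 were higher at an edgeR unadjusted p under 0.05. Their median log2 fold change was 1.13, beside 0.018 over all genes tested. Pax5 of B cells was at 0 in all libraries, and Fcgr1 of monocytes and Ly6g of granulocytes were at 0 in all naïve libraries. The part of these markers and library differences in the results was not tested, except where a value without the libraries is given.

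Of the 5 delta chain genes, Trdv4 was the one that edgeR called, and it fell in pre-exposed mice. This compares with 6.3% of all 12655 genes tested being called in either direction and 1.18% being called lower, so the count by itself says little about the group. The median log2 fold change of the 5 genes was 0.12, beside 0.018 over all genes tested. The Trdv4 change was among the results already known when these genes were chosen.

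Trdc, the constant gene, was the most abundant of the 5 and did not pass the test. Its level in CPM (counts relative to the TMM-scaled size of the library) was 3386, 3873, 2299, 2207 and 1826 in naïve mice 1 to 5, and 1141, 2271, 3082, 1875 and 3626 in pre-exposed mice 1 to 5. The groups overlapped over most of their range, and only pre-exposed mouse 1 lay below all naïve mice. The mean was 2718 ± 868 CPM (SD, n = 5) in naïve and 2399 ± 980 CPM (SD, n = 5) in pre-exposed mice, a log2 fold change of -0.18 (SE 0.32, edgeR adjusted p = 0.767, 95% interval -0.85 to 0.49). An exact two-sided permutation test over mice gave p = 0.508 for the log2 level. With the trend with gene length removed, the log2 fold change was -0.72 (SE 0.31, edgeR adjusted p = 0.261), so its size depended on this choice.

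Trdv4, which encodes the Vδ1 chain, fell 4.3-fold on average. Its level was 399, 112, 291, 676 and 569 CPM in naïve mice 1 to 5, and 51.4, 57.1, 60.6, 75.3 and 234 CPM in pre-exposed mice 1 to 5. Pre-exposed mice 1 to 4 lay below all naïve mice, whereas pre-exposed mouse 5 lay above naïve mouse 2, so the groups overlapped through these libraries. The mean was 409 ± 223 CPM (SD, n = 5) in naïve and 95.7 ± 77.9 CPM (SD, n = 5) in pre-exposed mice, a log2 fold change of -2.11 (SE 0.50, edgeR adjusted p = 0.0283, 95% interval -3.16 to -1.05, with 4 of 5 pre-exposed mice under the naïve range). The exact two-sided permutation test over mice gave p = 0.0159, where the smallest p that 5 against 5 allows is 0.00794.

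The direction was the same in all 21 other settings that were run, but the call was not. With TREAT on voom values relative to a fold of 1.5, as fitted here without sample weights, Trdv4 had a log2 fold change of -2.16 and an adjusted p of 0.328, and that fit called 2 genes in all. The study's methods name voom and TREAT and do not say whether weights were used, so that fit is not taken as the study's own result. With sample quality weights, Trdv4 was called (-2.61, adjusted p = 0.0244), with 0.956% of all genes called lower. In edgeR, the call was lost in 6 of the 10 fits that left out 1 library, those without naïve mice 1, 4 or 5 (adjusted p of 0.0767, 0.0752 and 0.0685) and those without pre-exposed mice 2, 3 or 4 (adjusted p of 0.106, 0.0654 and 0.0512). Without pre-exposed mouse 5 the log2 fold change was -2.78 (edgeR adjusted p = 0.00102). Against pre-exposed mice 1 and 5 alone, which share the index pair style of the naïve mice, the log2 fold change was -1.47 (SE 0.71, edgeR adjusted p = 0.347), and in that fit 0 genes were called lower and 23 higher, with 2012 genes at an unadjusted p under 0.05. Against pre-exposed mice 2 to 4 alone it was -2.73 (SE 0.46, edgeR adjusted p = 0.000842), where 14.9% of all genes were called lower.

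**Figure D1:**
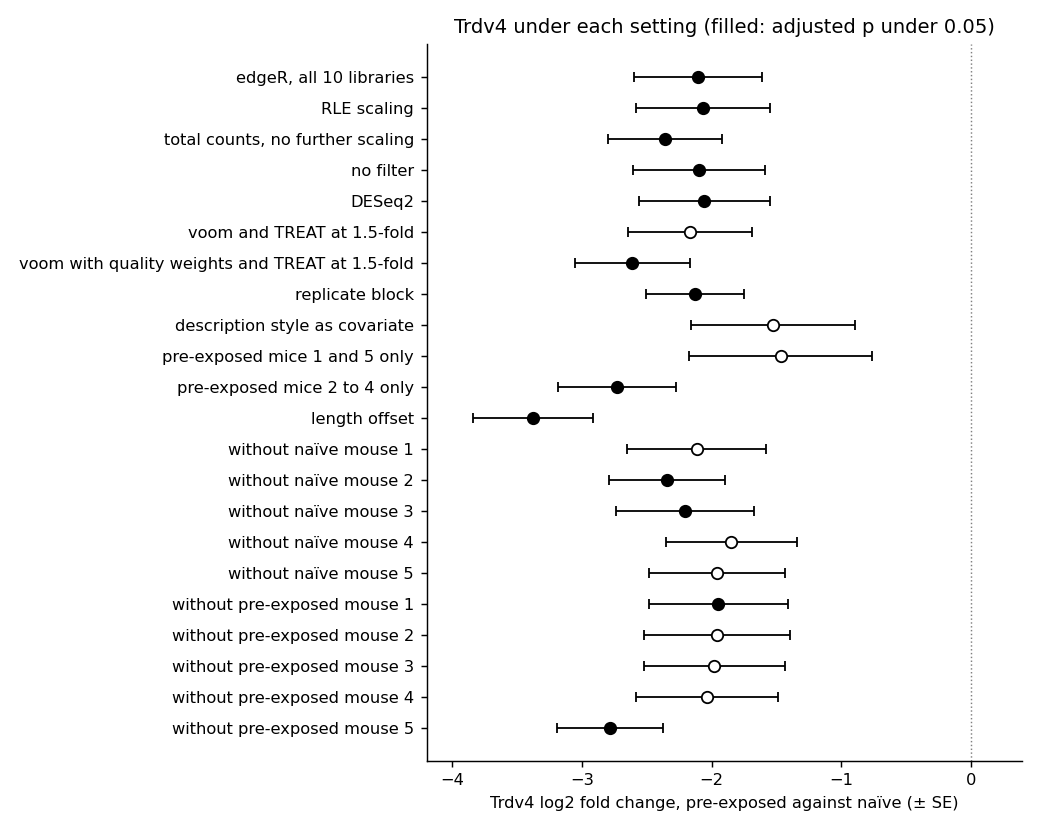
Log2 fold change of Trdv4 in pre-exposed against naïve mice (horizontal axis) under each of 22 settings (vertical axis), with error bars of 1 SE and filled points where the adjusted p was under 0.05. All points lie below 0, while 3 of 11 alternative settings and 6 of 10 fits without 1 library have open points.

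The other V genes did not pass the test. Trdv5 was at 109, 95.4, 71.4, 64.5 and 58.1 CPM in naïve mice 1 to 5 and at 53, 111, 108, 94.3 and 83.4 CPM in pre-exposed mice 1 to 5. Trdv2-2 was at 76.5, 68, 52.1, 53.3 and 39.3 CPM in naïve mice 1 to 5, whereas the same pre-exposed mice had 35.6, 90.3, 65.7, 63.3 and 59.4 CPM. For both genes the groups overlapped, and pre-exposed mouse 1 was the lowest of all 10 mice. The log2 fold change was 0.17 for Trdv5 (SE 0.26, edgeR adjusted p = 0.722, 95% interval -0.38 to 0.73) and 0.12 for Trdv2-2 (SE 0.27, edgeR adjusted p = 0.824, 95% interval -0.46 to 0.69).

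Trdv1 was the least abundant member. It was at 20.6, 22.1, 15.6, 11.6 and 7.80 CPM in naïve mice 1 to 5 and at 5.90, 19.9, 71.5, 13.3 and 28 CPM in pre-exposed mice 1 to 5. Pre-exposed mouse 3 had more than any other mouse, and pre-exposed mice 1, 2 and 4 lay within or below the naïve range. The log2 fold change was 0.81 (SE 0.51, edgeR adjusted p = 0.349, 95% interval -0.28 to 1.91), and without pre-exposed mouse 3 it was 0.07 (edgeR adjusted p = 0.944). The V genes are short, and with the trend with gene length removed the log2 fold changes were -0.25 for Trdv1, -0.92 for Trdv2-2 and -0.85 for Trdv5, so that the direction of all 3 depended on this choice, while Trdv4 was at -3.38 (edgeR adjusted p = 0.00886, with 0.34% of all genes called lower).

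**Figure D2:**
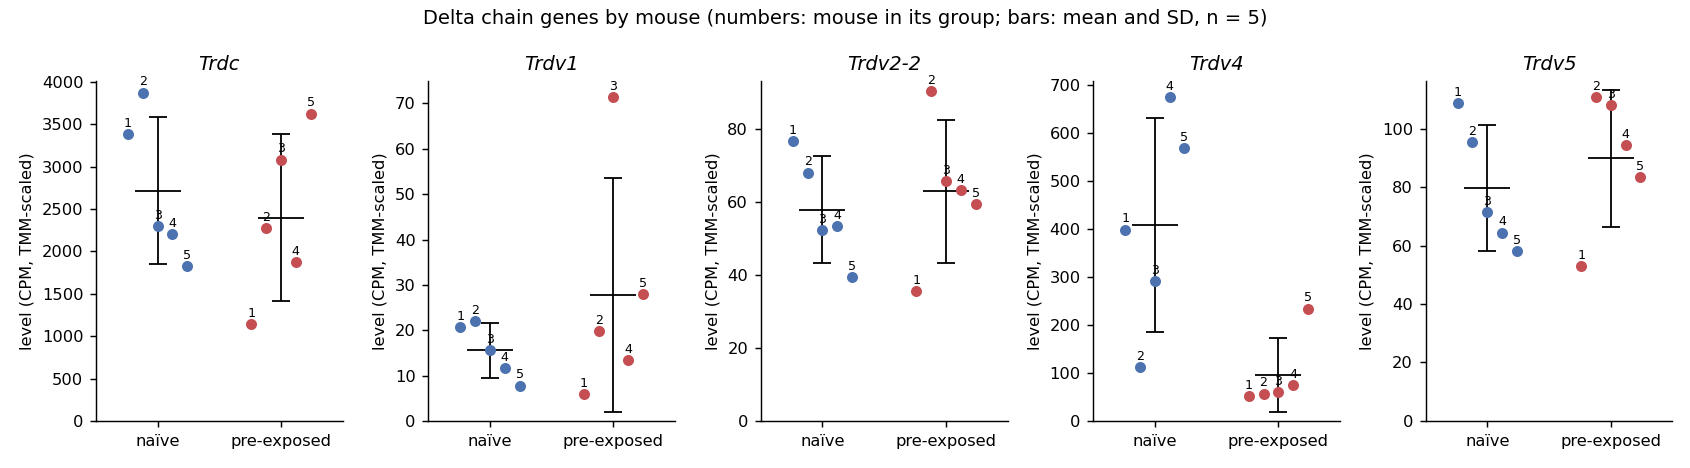
Level of each delta chain gene in CPM (vertical axis, from 0) in naïve and pre-exposed mice, with 1 point per mouse, numbered by mouse, and bars for the mean and SD (n = 5). Trdv4 has 4 pre-exposed mice between 51.4 and 75.3 CPM, below all naïve mice, and the other panels overlap.

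Levels of different genes were compared per kilobase of gene length. In naïve mice the order was Trdc at 2460 ± 786 CPM per kb (SD, n = 5), Trdv4 at 1187 ± 647, Trdv5 at 228 ± 61.8, Trdv2-2 at 166 ± 41.9 and Trdv1 at 46.1 ± 17.8 CPM per kb. Trdv4 was above Trdv5 in each naïve mouse, although by little in naïve mouse 2, where it was at 324 and Trdv5 at 273 CPM per kb. In pre-exposed mice the order was Trdc at 2171 ± 887 CPM per kb (SD, n = 5), Trdv4 at 277 ± 226, Trdv5 at 258 ± 67.1, Trdv2-2 at 181 ± 56 and Trdv1 at 82.2 ± 76.5 CPM per kb. There the means of Trdv5, Trdv2-2 and Trdv1 lay within 1 SD of the Trdv4 mean, and Trdv5 was above Trdv4 in pre-exposed mice 1 to 4.

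The relative use of the V genes was then compared within each library, as the share of each gene in the summed counts per kilobase of the 4 V genes, a measure that does not depend on library scaling. The share of Trdv4 was 66.1%, 37.7%, 67.8%, 84% and 84.5% in naïve mice 1 to 5, and 35.4%, 20.6%, 19.8%, 30.7% and 57.9% in pre-exposed mice 1 to 5. Naïve mouse 2 and pre-exposed mouse 5 again stood between the groups. The mean share was 68% ± 19 (SD, n = 5) in naïve and 32.9% ± 15.5 (SD, n = 5) in pre-exposed mice, a difference of -35.1 percentage points (exact two-sided permutation test, p = 0.0159, 1 of 4 such tests). The shares of 1 library rested on 1533 to 8244 counts, and the widest 95% Wilson interval of any share was 4.81 percentage points, so counting error was small beside the spread between mice.

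The shares of the other V genes were correspondingly higher, since the 4 shares sum to 100% and are not independent. Trdv5 made up 16.5% ± 9.69 in naïve and 33.8% ± 7.72 in pre-exposed mice (SD over 5 mice per group, exact two-sided permutation test, p = 0.0159), and pre-exposed mice 1 to 4 lay above all naïve mice. Trdv2-2 made up 11.9% ± 6.79 and 23.6% ± 6.49 (SD over 5 mice per group, exact two-sided permutation test, p = 0.0238), with pre-exposed mice 1, 2 and 4 above all naïve mice. Trdv1 made up 3.5% ± 2.58 and 9.62% ± 8.1 (SD over 5 mice per group, exact two-sided permutation test, p = 0.0635), and its share of 23.9% in pre-exposed mouse 3 was far from the 4.16% to 7.35% of the other pre-exposed mice. Removing the trend with gene length left the difference in the Trdv4 share at -35.1 points (exact two-sided permutation test, p = 0.0159), since the 4 V genes were all between 337 and 349 bases long. Against pre-exposed mice 1 and 5 alone the difference was -21.4 points (exact two-sided permutation test, p = 0.143, where the smallest p allowed is 0.0476).

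**Figure D3:**
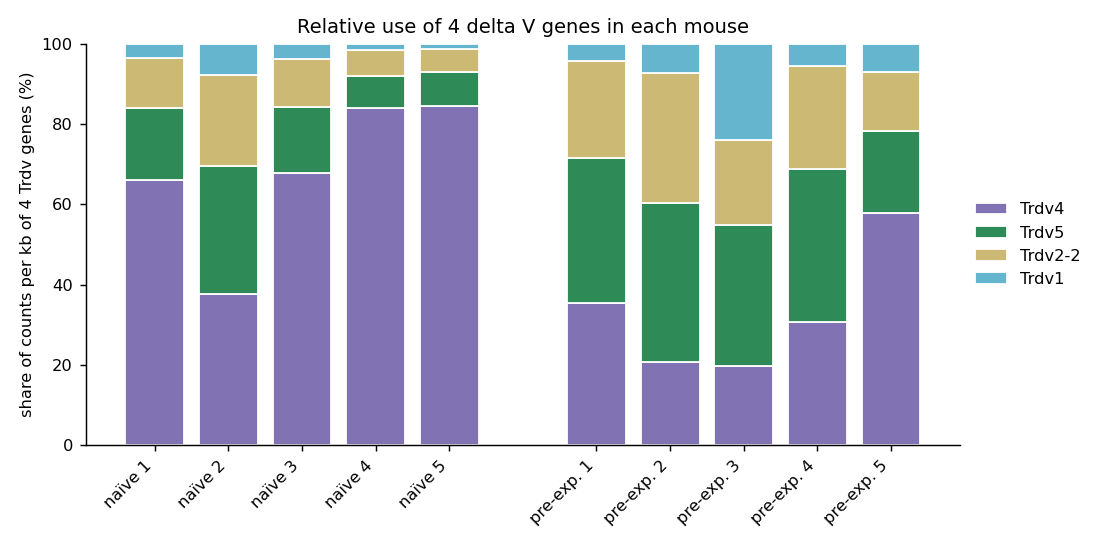
Share of each of 4 Trdv genes in their summed counts per kilobase (vertical axis, percent) in each naïve and pre-exposed mouse, drawn as stacked bars. Trdv4 takes 66.1% to 84.5% in naïve mice other than mouse 2, and 19.8% to 35.4% in pre-exposed mice other than mouse 5.

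The V genes were also set against Trdc in the same library, as the log2 ratio of counts per kilobase. For Trdv4 the ratio was -1.23 ± 1.40 (SD, n = 5) in naïve and -3.13 ± 0.68 (SD, n = 5) in pre-exposed mice (exact two-sided permutation test, p = 0.0317). The naïve mice were widely spread. In naïve mice 4 and 5 Trdv4 was about as abundant per kilobase as Trdc itself, at 1960 and 1649 CPM per kb beside 1997 and 1653 CPM per kb for Trdc, whereas in naïve mouse 2 it was at 324 beside 3505 CPM per kb. That mouse had a ratio of -3.44, which lay within the pre-exposed range of -3.99 to -2.27. In naïve mice 4 and 5 the 4 V genes together came to 117% and 118% of Trdc per kilobase. A ratio to Trdc is therefore not a fraction of delta chains, and among all delta V genes Trdv4 made up 65.4% and 63.1% in these mice. The exact permutation p of the Trdv4 ratio rose to between 0.0556 and 0.0635 in 5 of the 10 comparisons that left out 1 library, those without naïve mice 3, 4 or 5 or pre-exposed mice 2 or 3.

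The ratios of the other V genes to Trdc did not pass the test. The ratio was -3.41 ± 0.16 in naïve and -3.01 ± 0.48 in pre-exposed mice for Trdv5 (SD over 5 mice per group, exact two-sided permutation test, p = 0.0952), -3.87 ± 0.18 and -3.54 ± 0.52 for Trdv2-2 (p = 0.238) and -5.77 ± 0.25 and -5.09 ± 0.81 for Trdv1 (p = 0.0635). In naïve mice these 3 ratios varied little between mice, with SDs of 0.16 to 0.25 beside 1.40 for Trdv4. Together, Trdv1, Trdv2-2 and Trdv5 amounted to 15.2% to 19.3% of the Trdc level per kilobase in naïve mice and to 15% to 30.9% in pre-exposed mice, with pre-exposed mouse 5 the lowest of all 10 mice. Leaving out that mouse brought the Trdv5 ratio to a difference of 0.59 (exact two-sided permutation test, p = 0.00794), and leaving out pre-exposed mouse 1 brought the Trdv1 ratio to 0.88 (exact p = 0.00794), while without other single libraries the p went up to 0.198 for Trdv5 and 0.167 for Trdv1. With the trend with gene length removed, the ratios differed by -0.14 for Trdv5 (exact p = 0.897) and by -0.21 for Trdv2-2 (exact p = 0.762), so their direction depended on this choice.

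The constant gene was next set against the CD3 chains, which are needed for surface expression of any T cell receptor. Trdc over the mean log2 level of Cd3d, Cd3e and Cd3g was 2.10, 2.15, 1.65, 1.74 and 1.41 in naïve mice 1 to 5 and 1.06, 0.40, 1.00, 0.38 and 1.26 in pre-exposed mice 1 to 5. The groups did not overlap. In CPM, they did not overlap for 2.17% of all genes tested in the lower and 2.77% in the higher direction. These percentages are of single genes and not of ratios. The mean log2 ratio was 1.81 ± 0.31 (SD, n = 5) in naïve and 0.82 ± 0.40 (SD, n = 5) in pre-exposed mice, a difference of -0.99 (exact two-sided permutation test, p = 0.00794, which is the smallest that 5 against 5 allows). Without any 1 library the difference stayed between -1.10 and -0.88 (exact p at most 0.0159), with Cd3e as the only denominator it was -0.79 (exact p = 0.0714), and against pre-exposed mice 1 and 5 alone it was -0.65 (exact p = 0.0952).

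Of the CD3 genes in this ratio, Cd3d passed the test. It rose by a log2 fold change of 1.02 (SE 0.28, edgeR adjusted p = 0.0459), with 4 of 5 pre-exposed mice over the naïve range. That call was lost in 8 of the 10 fits without 1 library, all but those without pre-exposed mouse 1 or 5 (edgeR adjusted p of up to 0.151). It was also lost in every other setting run but DESeq2 and pre-exposed mice 2 to 4 alone, with an adjusted p from 0.0522 with RLE scaling to 0.957 with voom and TREAT, and with the gene length trend removed the log2 fold change was 0.60 (edgeR adjusted p = 0.269). Cd3g (0.94, edgeR adjusted p = 0.109), Cd3e (0.63, edgeR adjusted p = 0.140) and the zeta chain Cd247 (-0.06, edgeR adjusted p = 0.910) did not pass the test. Trac, the constant gene of the alpha chain in αβ T cells, was at 127 to 228 CPM in naïve and 270 to 507 CPM in pre-exposed mice and rose by a log2 fold change of 1.17 (SE 0.26, edgeR adjusted p = 0.0221), a call that was lost without naïve mice 1, 2 or 5 or pre-exposed mouse 2 (edgeR adjusted p of 0.0582 to 0.0795). The Trac call was also lost with the gene length trend removed, at a log2 fold change of 0.58 (edgeR adjusted p = 0.230), with the covariate for the index pair style (edgeR adjusted p = 0.159), against pre-exposed mice 1 and 5 alone (edgeR adjusted p = 0.192) and with voom and TREAT (adjusted p = 0.526, or 0.101 with weights). For the beta chain, Trbc1 was at 0.19 (edgeR adjusted p = 0.674) and Trbc2 at 0.50 (edgeR adjusted p = 0.235) on the log2 scale.

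**Figure D4:**
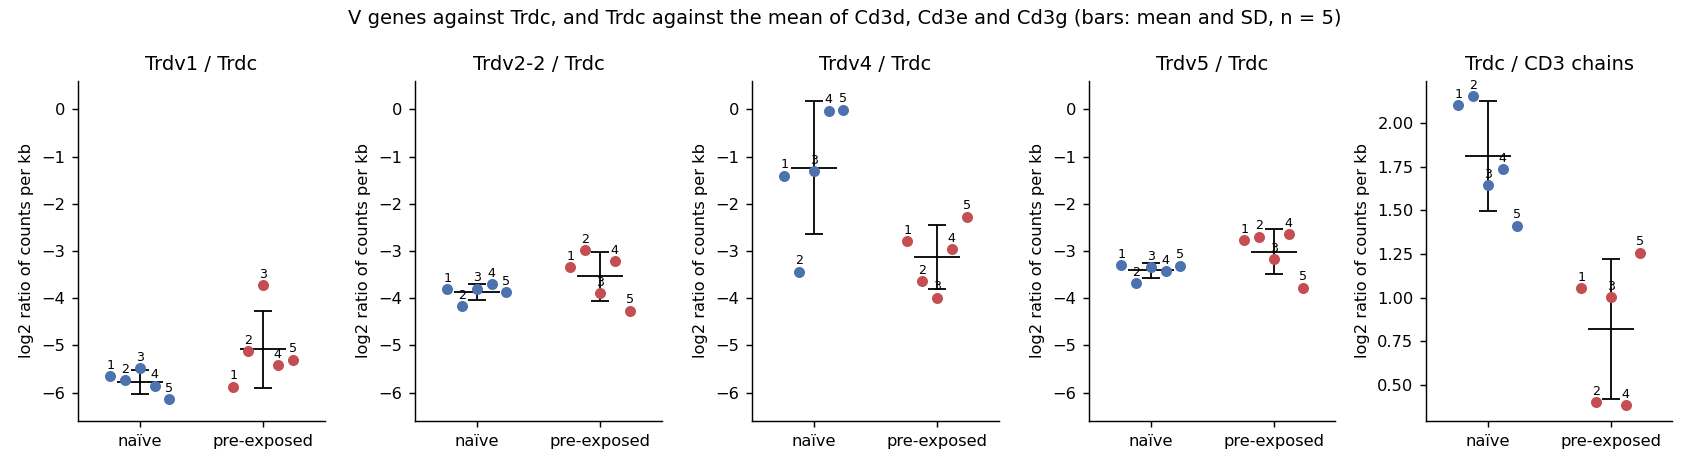
Log2 ratio of counts per kilobase (vertical axis) of each V gene over Trdc and of Trdc over the mean of Cd3d, Cd3e and Cd3g, in naïve and pre-exposed mice, with 1 numbered point per mouse and bars for the mean and SD (n = 5). Trdv4 over Trdc spans -3.44 to about 0 in naïve mice, and Trdc over the CD3 chains is lower in all pre-exposed mice than in any naïve mouse.

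The locus holds further V genes that can form delta chains. Of 20 genes of the delta locus and the TRAV/DV group in the count table, 15 passed the filter, and Trdv4 was the only one of these 15 that edgeR called. Of the 10 that are not members, 0 were called and 1, Trav15d-1-dv6d-1, had an unadjusted p under 0.05. Among all 12655 genes tested, 797 were called and 3078 had an unadjusted p under 0.05, so these counts say little by themselves. Trdv2-1, the close paralog of Trdv2-2, was at 13.7 ± 5.8 CPM in naïve and 17 ± 6.5 CPM in pre-exposed mice (SD over 5 mice per group, log2 fold change 0.30, edgeR adjusted p = 0.685). The Trav15 genes encode the Vδ6 family. Trav15d-1-dv6d-1, the most abundant TRAV/DV gene, was at 136 ± 63.6 CPM and 251 ± 107 CPM (SD over 5 mice per group, log2 fold change 0.89, edgeR adjusted p = 0.160), and Trav15-1-dv6-1 at 64.4 ± 13.8 and 108 ± 53 CPM (log2 fold change 0.75, edgeR adjusted p = 0.233). Trav15-2-dv6-2 was at 0.33 (edgeR adjusted p = 0.570) and Trav15d-2-dv6d-2 at 0.21 (edgeR adjusted p = 0.717). The Trav15 copies in GENCODE were 76.1% to 100% identical to each other, so single copies are uncertain, and reads of TRAV/DV genes that were joined to alpha J segments in αβ T cells cannot be told apart from delta chain reads. The other TRAV/DV genes that passed the filter were Trav21-dv12 (-0.29, edgeR adjusted p = 0.747), Trav13-4-dv7 (0.14, edgeR adjusted p = 0.833) and Trav4-4-dv10 (1.02, edgeR adjusted p = 0.315).

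With all these V genes in the denominator, Trdv4 still made up 43.9% ± 21.3 of V counts per kilobase in naïve and 12% ± 6.19 in pre-exposed mice (SD over 5 mice per group), a difference of -31.9 points (exact two-sided permutation test, p = 0.0238). The higher shares of the other members were not called on this scale, with differences of 3.39 points for Trdv5 (exact p = 0.103) and 2.09 points for Trdv2-2 (exact p = 0.151). The share of the 4 Trav15 genes was 32.2%, 49.3%, 32.9%, 16.7% and 19.7% in naïve mice 1 to 5 and 48.6%, 54.8%, 55.7%, 56.4% and 57.2% in pre-exposed mice 1 to 5. Naïve mouse 2 was again the one that lay with the pre-exposed mice, and this share was described after it was seen and was not tested. Trdv4 is in its denominator, so the Trav15 share goes up where Trdv4 is low and is not a separate result.

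J segments were counted as genes of their own. The sequences of both counted J segments are shown because the known Vγ6 partner chain joins Trdv4 to Trdj2, and capitals mark the codons of the conserved phenylalanine-glycine motif.
Trdj1 (chr14:54123138-54123188, plus strand): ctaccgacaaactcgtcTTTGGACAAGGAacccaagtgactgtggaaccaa
Trdj2 (chr14:54136779-54136837, plus strand): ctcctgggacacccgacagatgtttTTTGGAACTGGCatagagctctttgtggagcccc

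Trdj1 was at 19.2 ± 6.25 CPM in naïve and 34.8 ± 18.3 CPM in pre-exposed mice (SD over 5 mice per group, log2 fold change 0.84, edgeR adjusted p = 0.214), and Trdj2 at 5.89 ± 1.87 and 5.36 ± 2.59 CPM (log2 fold change -0.14, edgeR adjusted p = 0.862). The share of Trdj2 among the counts of both J segments was 19.4%, 12.2%, 19.9%, 35.7% and 37.1% in naïve mice 1 to 5 and 19.3%, 12%, 14.5%, 11.8% and 13.7% in pre-exposed mice 1 to 5. The highest shares stood in naïve mice 4 and 5, which also had the highest Trdv4 levels, and the groups overlapped. These shares rested on 114 to 1005 counts per library, with a 95% Wilson interval of 29.98% to 44.84% in naïve mouse 5 and of 13.1% to 27.5% in pre-exposed mouse 1. This measure was chosen after its values were seen, and it is given as a description.

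Gamma chain genes were compared next, because the delta chain pairs with them. Of 15 gamma chain genes tested, edgeR called 0, Trgv6 was the only one at an unadjusted p under 0.05, and their median log2 fold change was -0.19. Over all 12655 genes tested, 797 were called and 3078 had an unadjusted p under 0.05, so these counts say little by themselves. Trgv6, which encodes Vγ6, was at 201, 57.4, 139, 375 and 363 CPM in naïve mice 1 to 5 and at 13.2, 28.1, 49.7, 77.3 and 126 CPM in pre-exposed mice 1 to 5. Its log2 fold change was -1.96 (SE 0.56, edgeR adjusted p = 0.0507), with pre-exposed mice 1 to 3 below all naïve mice, and DESeq2 gave an adjusted p of 0.0104. With the gene length trend removed it was -3.18 (edgeR adjusted p = 0.0131), while voom and TREAT did not call Trgv6 (adjusted p = 0.502, or 0.142 with weights). Total counts (edgeR adjusted p = 0.0330) and pre-exposed mice 2 to 4 alone (edgeR adjusted p = 0.0135) gave a call. The index pair covariate (-1.73, edgeR adjusted p = 0.290) and pre-exposed mice 1 and 5 alone (-1.66, edgeR adjusted p = 0.382) did not. Among fits without 1 library, only that without pre-exposed mouse 5 called it (edgeR adjusted p = 0.0114, up to 0.151 in the others).

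Trdv4 and Trgv6 ranked the mice in nearly the same order. Naïve mice 4 and 5 were highest and pre-exposed mouse 1 was lowest for both, naïve mouse 2 was the lowest naïve mouse for both, and pre-exposed mouse 5 was the highest pre-exposed mouse for both. Across the 10 libraries, which come from both groups, Pearson's r of log2 CPM was 0.942 and Spearman's rho 0.988, and r was 0.891 without the 2 libraries farthest from the median of Trdv4 and 0.990 within the 7 libraries with an index pair in the labels. These values are a description. The log2 ratio of Trdv4 over Trgv6 per kilobase was 1.14 ± 0.16 (SD, n = 5) in naïve and 1.06 ± 0.77 (SD, n = 5) in pre-exposed mice, where pre-exposed mouse 1 was at 2.19 and pre-exposed mouse 4 at 0.20.

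**Figure D5:**
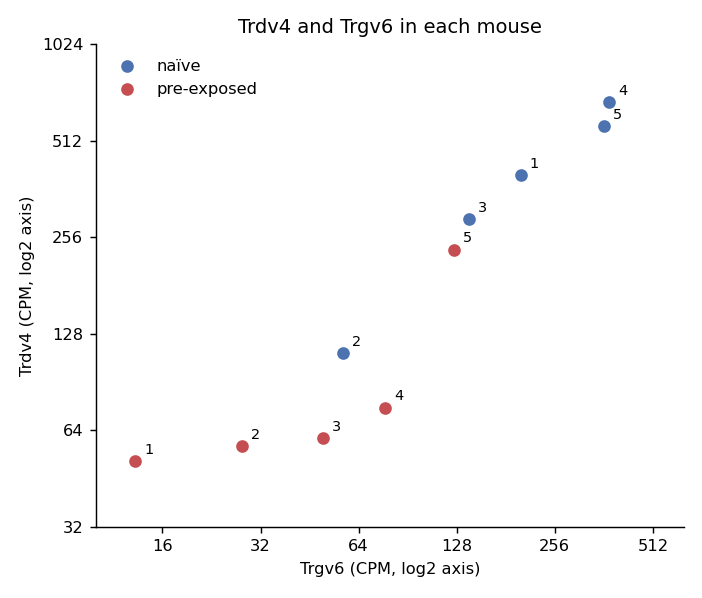
Level of Trdv4 (vertical axis) against that of Trgv6 (horizontal axis) in each mouse, both in CPM on log2 axes, with naïve and pre-exposed mice in different colors and numbered by mouse. Pre-exposed mice 1 to 4 lie between 51.4 and 75.3 CPM of Trdv4, while naïve mouse 2 and pre-exposed mouse 5 lie among the middle values.

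The V genes Trgv1 and Trgv4 did not follow that order. Trgv1 ranged from 275 to 567 CPM in naïve and from 76 to 1456 CPM in pre-exposed mice (log2 fold change -0.09, edgeR adjusted p = 0.950), and Trgv4 from 266 to 793 and from 145 to 903 CPM (-0.66, edgeR adjusted p = 0.387), with the highest level of both genes in pre-exposed mouse 5. Without that mouse the log2 fold change was -1.65 for Trgv1 (edgeR adjusted p = 0.0071) and -1.38 for Trgv4 (edgeR adjusted p = 0.0145). With the gene length trend removed, Trgv4 was at -1.75 (edgeR adjusted p = 0.0453). The constant genes Trgc1 (-0.59, edgeR adjusted p = 0.211) and Trgc2 (0.09, edgeR adjusted p = 0.900) did not pass the test in the main fit. Trgc1 was called lower with the gene length trend removed (-1.58, edgeR adjusted p = 0.00886). It was also called lower against pre-exposed mice 2 to 4 alone (-0.75, edgeR adjusted p = 0.0141), where 14.9% of all genes were. Without pre-exposed mouse 5 it was called too (-0.90, edgeR adjusted p = 0.0199), and no other setting called it. Trgc1 was lowest in pre-exposed mouse 1, at 337 CPM, and highest in naïve mouse 4 and pre-exposed mouse 5, at 1098 and 1090 CPM. The other 10 gamma chain genes had log2 fold changes from -0.56 to 0.57. Of these, Trgv2 was at 379, 105, 226 and 105 CPM in pre-exposed mice 1 to 4, below the naïve range of 486 to 1001 CPM. In pre-exposed mouse 5 it was at 1744 CPM (log2 fold change -0.56, edgeR adjusted p = 0.613). Trgv1 and Trgc1 also had 4 of 5 pre-exposed mice under the naïve range, so this trait was not particular to Trdv4.

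Trdv4 was also set beside the genes of the IL-17 and type 1 programs of γδ T cells. Of 19 IL-17 genes edgeR called 3 lower and 0 higher, beside 1.18% of all genes called lower, and their median log2 fold change was -0.66. Il23r, the receptor of IL-23, fell by 1.33 on the log2 scale (SE 0.23, edgeR adjusted p = 0.0115, with 5 of 5 pre-exposed mice under the naïve range), where 2.17% of all genes had groups that did not overlap in this direction. The scavenger receptor gene Cd163l1 fell by 2.41 (SE 0.54, edgeR adjusted p = 0.0238) and the IL-1 receptor gene Il1r1 by 1.83 (SE 0.41, edgeR adjusted p = 0.0243), and the kinase gene Blk was at -1.39 (edgeR adjusted p = 0.0544). Among naïve mice, Cd163l1 was highest in mice 4 and 5, at 1941 and 2557 CPM, and lowest in mouse 2, at 298 CPM, as was the case for Trdv4. Among pre-exposed mice the order differed, since Cd163l1 was lowest in mouse 5, at 122 CPM, where Trdv4 was highest, and highest in mouse 4, at 438 CPM. The calls of Cd163l1 and Il1r1 were lost without naïve mice 1, 4 or 5 or pre-exposed mice 2 or 3 (edgeR adjusted p of 0.0533 to 0.0836). All 3 calls were lost with voom and TREAT without weights (adjusted p of 0.355 to 0.526), with the covariate for the index pair style (edgeR adjusted p of 0.0707 to 0.205) and against pre-exposed mice 1 and 5 alone (edgeR adjusted p of 0.136 to 0.259), those of Cd163l1 and Il1r1 with voom, weights and TREAT (adjusted p of 0.132 and 0.0868), and that of Il1r1 with the gene length trend removed (edgeR adjusted p = 0.0503).

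Of 13 type 1 genes edgeR called 7 higher and 0 lower, beside 5.12% of all genes called higher, and their median log2 fold change was 1.28. The surface antigen gene Ly6c2 (1.53, edgeR adjusted p = 0.00818), the granule gene Nkg7 (1.28, edgeR adjusted p = 0.0108), Ifng, which encodes IFNγ (1.44, edgeR adjusted p = 0.0133), and the chemokine gene Ccl5 (1.51, edgeR adjusted p = 0.0174) were each higher in all 5 pre-exposed mice than in any naïve mouse, as were 2.77% of all genes. The calls of Ifng and Ccl5 were lost without naïve mouse 1 or pre-exposed mouse 2, and that of Ccl5 also without naïve mouse 4 (edgeR adjusted p of 0.0503 to 0.0624). With the gene length trend removed, all 4 calls were lost, at log2 fold changes of 0.89 for Ly6c2, 0.59 for Nkg7, 1.01 for Ifng and 0.56 for Ccl5 (edgeR adjusted p of 0.0705 to 0.251), as they were with voom and TREAT without weights (adjusted p of 0.257 to 0.423). The calls of Nkg7, Ifng and Ccl5 were also lost against pre-exposed mice 1 and 5 alone (edgeR adjusted p of 0.0722 to 0.116), and those of Nkg7 and Ccl5 with the covariate for the index pair style (edgeR adjusted p of 0.0606 to 0.0624). Both lists were written with earlier results of these libraries known and are not independent of them.

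Genes outside the receptor loci were ranked by the likeness of their levels to each member, as Pearson's r of log2 CPM over the 10 libraries among 10414 genes with a mean of at least 5 CPM. The genes most like Trdv4 were Matn2, which encodes a matrilin of the extracellular matrix (r = 0.920), and the zinc finger gene Zfp664 (r = 0.913). With the 2 libraries farthest from the Trdv4 median left out, r was 0.847 for Matn2 and 0.913 for Zfp664. Matn2 was itself called lower in pre-exposed mice (log2 fold change -1.76, edgeR adjusted p = 0.0242), and Zfp664 was not called (-0.40, edgeR adjusted p = 0.240). The 10 libraries come from both groups, so r includes differences between the groups. The genes most like Trdc were Ociad1 (r = 0.948) and Parp8 (r = 0.934), those most like Trdv5 were Akr1c13 (r = 0.959) and the caspase gene Casp8 (r = 0.958), those most like Trdv2-2 were Cyp20a1 (r = 0.941) and Fam98a (r = 0.939), and those most like Trdv1 were Mtch2 (r = 0.934) and Hacd2 (r = 0.907). With 10 libraries and 10414 genes compared, the ranking is a description and was not tested.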

How the data were processed

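RNA of EM γδ T cells was sequenced from 5 naïve and 5 pre-exposed mice, with group and replicate number as in the sample titles. The authors aligned read pairs to mm10 with Subread and counted those overlapping each Entrez gene with featureCounts and its built-in NCBI annotation. The deposited values are these raw counts, not normalized. No version of these tools and no strand setting is stated in the sources used here. The library kit is a SMART kit in the paper but a TruSeq kit in the labels.

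Entrez IDs were matched to symbols by the RefSeq table of GRCm38.p6 (25275 of 27179 IDs). Libraries of 1 group differed by more than sampling noise in all pairs (smallest chi-square per gene 22.6), and each was used as 1 replicate. Of 13534 genes kept by filterByExpr, 767 without a symbol and 112 immunoglobulin genes were left out. Immunoglobulin counts made up 0.0845% to 0.737% of a library in naïve and 0.345% to 6.68% in pre-exposed mice. Groups were compared with edgeR 4.0.16 under R 4.3.3 by its quasi-likelihood test (robust, legacy set to FALSE, TMM scaling, no covariates), adjusted by Benjamini and Hochberg over all 12655 genes at a threshold of 0.05, and its SEs are the fold change over the root of F, with 95% intervals from the t distribution that edgeR's p implies. CPM are counts over the TMM-scaled library size, and log2 CPM have a prior count of 2. Shares and ratios used counts per kilobase, with lengths from the count table and 0.5 counts added for ratios, and were compared by exact two-sided permutation tests over mice, without adjustment over the members.

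Alternatives were RLE or no further scaling, no filter, DESeq2 1.42.0, voom and TREAT in limma 3.58.1 without and with quality weights, the replicate number as a block, a covariate for the index pair in the label, subsets of pre-exposed mice (1 and 5, or 2 to 4), an offset for gene length (loess, span 0.3), and each library left out. The offset for shares and ratios was added after the data were seen. On simulated counts of 5 against 5 libraries and 12655 genes, edgeR recovered 83.6% of 4-fold changes and 11.9% of 2-fold changes. Genes named are the 5 members, receptor, CD3 and TRAV/DV genes that passed the filter, the 4 genes of the IL-17 and type 1 lists with the smallest p, and the 2 genes most like each member. Members and lists were chosen with earlier results of these data known. Sequences came from GENCODE M21, and identities from global alignments. Wilson intervals of shares cover counting error only.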

Additional observations from a re-analysis of the deposited data

Results flagged for a closer look

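Over the members' levels, V shares and ratios, 28 groups of 5 mice were examined for a mouse far from the rest by Dixon's criterion, which chance meets in about 1 of 20 groups, and 3 values met it. Pre-exposed mouse 5 had 234 CPM of Trdv4, while the other pre-exposed mice had 51.4 to 75.3 CPM. The same mouse had a Trdv5 share of 20.4% of the 4 V genes, beside 35% to 39.6% in the other pre-exposed mice. Pre-exposed mouse 3 had a Trdv1 share of 23.9%, beside 4.16% to 7.35% in the other pre-exposed mice. Pre-exposed mouse 5 also had the lowest TMM factor of the 10 libraries, 0.68, and the lowest summed level of monocyte and macrophage markers among pre-exposed mice, 45.2 CPM. The part of these library properties in the values was not tested.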

How the results depend on the processing

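Of the values that answer a comparison, 48 of the 71 results of alternative settings and 91 of the 110 without 1 library kept their direction and side of the threshold or their count. The number of the 5 delta chain genes called was 0 with voom and TREAT, with the index pair style as a covariate and against pre-exposed mice 1 and 5 alone, and it was 0 to 1 without 1 library. Without 1 library, differences ranged from 2.54 to 7.48 points for the Trdv1 share, from 9.50 to 14.4 points for the Trdv2-2 share, from 0.35 to 0.88 (log2) for Trdv1 over Trdc, from -2.44 to -1.59 for Trdv4 over Trdc and from 0.31 to 0.59 for Trdv5 over Trdc. The Trdv4 and Trdv5 shares and Trdc over the CD3 chains kept their side of the threshold without any 1 library.

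Against pre-exposed mice 1 and 5 alone, the differences were 7.50 points for the Trdv2-2 share, -21.4 points for the Trdv4 share, 11.7 points for the Trdv5 share, -1.30 (log2) for Trdv4 over Trdc and -0.65 for Trdc over the CD3 chains, and none of these passed. Against pre-exposed mice 2 to 4 alone, the Trdv2-2 share differed by 14.5 points and Trdv4 over Trdc by -2.29 (log2), which did not pass, and Trdv1 over Trdc by 1.02 and Trdv5 over Trdc by 0.58, which did. With all delta V genes in the denominator, the Trdv2-2 share differed by 2.09 points and the Trdv5 share by 3.39 points, with 5 counts added Trdv1 over Trdc by 0.68 (log2, passing), and with Cd3e alone Trdc over the CD3 chains by -0.79 (log2).

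The replicate numbers did not pair the mice, since the deviations of libraries with the same number correlated at -0.261 to 0.053. With the replicate number as a block, edgeR called 55 genes in place of 797, and the sign-flip test could not go below an exact p of 0.0625, so the unchanged differences of 11.7, -35.1 and 17.3 points for the Trdv2-2, Trdv4 and Trdv5 shares, -1.89 (log2) for Trdv4 over Trdc and -0.99 for Trdc over the CD3 chains did not pass under the pairing. Trdv4 itself was called with the block (log2 fold change -2.13, edgeR adjusted p = 0.0397). With the block, Il23r, Cd163l1, Nkg7, Ifng, Ccl5, Trac and Cd3d were not called (edgeR adjusted p of 0.0673 to 0.162).

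No log2 fold change that turned direction was called after the turn. With the trend with gene length removed they were -0.25 for Trdv1, -0.92 for Trdv2-2, -0.85 for Trdv5, -0.79 for Trdv2-1, -0.92 for Trav13-4-dv7, -0.42 for Trav15-1-dv6-1, -0.77 for Trav15-2-dv6-2, -0.25 for Trav15d-1-dv6d-1, -0.78 for Trav15d-2-dv6d-2, -0.024 for Trav4-4-dv10, -0.89 for Trgc2, 0.30 for Cd247, -0.76 for Trbc1 and -0.41 for Trbc2, and the ratios to Trdc differed by -0.21 for Trdv2-2 and -0.14 for Trdv5. With the index pair style as a covariate they were -0.30 for Trdv2-2, -0.23 for Trdv5, -0.18 for Trdv2-1, -0.47 for Trav13-4-dv7, -1.11 for Trav4-4-dv10, -0.034 for Trgc2, 0.98 for Trgv1 and 0.10 for Trgv4. Against pre-exposed mice 1 and 5 alone they were -0.24 for Trdv2-2, -0.18 for Trdv5, -0.10 for Trdv2-1, -0.40 for Trav13-4-dv7, -1.07 for Trav4-4-dv10, 1.04 for Trgv1 and 0.16 for Trgv4. Total counts without further scaling gave -0.027 for Trgc2, quality weights 0.054 for Cd247 and pre-exposed mice 2 to 4 alone 0.17 for Cd247. Without 1 library, the range was -0.077 to 0.27 for Trdv2-2, -0.34 to 0.059 for Trdj2, -0.030 to 0.32 for Trav13-4-dv7, -0.11 to 0.31 for Trgc2, -1.65 to 0.21 for Trgv1 and -0.22 to 0.076 for Cd247. The cause was not tested. Calls over all genes ranged from 2 with voom and TREAT to 3777 against pre-exposed mice 2 to 4 alone, beside 797. Counting error was small beside the spread of the shares between libraries. With 1 library per mouse, differences between mice and between library preparations cannot be told apart. In simulated counts without the gene length trend or outlying libraries, edgeR recovered few 2-fold changes (11.9%). Recovery in the real libraries was not measured.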
